A study of Mus musculus with 12 samples.

Results

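The variable (V) segments of the T cell receptor genes were described in mouse mammary tumours and mammary epithelium. They were chosen by name, as every gene whose symbol starts with Trav, Trbv, Trgv or Trdv and that had at least 5 counts summed over the 12 libraries. Of 170 such genes among the 54658 in the files, 93 met this minimum: 67 alpha, 21 beta, 1 gamma and 4 delta segments. The other 77 had fewer than 5 counts. Alpha segments that can also join a delta chain, marked by dv in their symbol, were counted as alpha. By the GENCODE M21 annotation on build GRCm38, 87 of the 93 are annotated as V genes and 6 as pseudogenes. The alpha and delta segments lie on chromosome 14, the beta segments on chromosome 6 and the gamma segment on chromosome 13. A further 6 gamma segments carry older symbols starting with Tcrg-V, so they fell outside the rule and are given separately.

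The choice of 5 counts decides only which of the least counted segments are included. Few counts need not mean a rare segment, because reads shared between near-identical alpha copies may be left uncounted. Of the 61 alpha segments under the minimum, 40 had no unique stretch in their transcripts, as described below. Just inside the minimum were Trav9n-1 with 5 counts and Trav20 and Trav7n-4 with 6 each. Just outside were Trav15d-1-dv6d-1, Trav23, Trav6n-5 and Trbv21 with 4 counts each, and Trav9d-1 and Trbv12-3 with 3. All of these counts came from epithelium.

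The study sequenced RNA of 9 Trp53R245W/+ mammary tumours and, as controls labelled CTL, of 3 wild-type samples of enriched mammary epithelium. Trp53 encodes the tumour suppressor p53, and the allele is a heterozygous missense mutation. All libraries came from female C57BL/6J X BALB/cJ F1 hybrid mice. The labels do not give the age of the mice, how the allele was switched on in the gland, the histology of the tumours or whether each tumour came from another mouse, so p-values measure only the spread between these libraries. The prefix of the sample titles differs between the groups, so a difference between tumour and epithelium cannot be told apart from a difference between whatever the prefixes stand for. Tumour numbers are those of the sample titles: 1, 4, 5, 14, 17, 20, 21, 24 and 27. Between 19695318 and 33600076 counts fell on genes in each library. Levels are given in CPM, counts per 1000000 counts of the library total after normalization. A gene at 0 could thus have a true level of up to 3 counts, or 0.0986 CPM (tumour 14) to 0.2735 CPM (tumour 4). Alignments that were not unique made up 8.59% to 12% in epithelium and 17.1% to 52.0% in tumours, with the highest value in tumour 4. Epithelial markers were present in all libraries: the summed level of Epcam, Krt8, Krt18, Krt5, Krt14 and Cdh1 was 1626 to 2199 CPM in epithelium and 1371 to 5595 CPM in tumours.

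A T cell receptor is a pair of chains, either alpha with beta or gamma with delta, that recognises antigen at the cell surface. Each chain is made by joining a V segment to joining and constant segments in the DNA of the developing T cell, and the joined V segment is transcribed from its own promoter. A diverse T cell population therefore transcribes many V segments at low levels, while a T cell clone transcribes very few. Alpha-beta T cells make up most T cells of blood and lymph nodes, and gamma-delta T cells are enriched in skin, mucosa and other barrier tissues. Epithelial cells do not rearrange these genes. In bulk RNA, fewer T cells and less receptor RNA per T cell cannot be told apart.

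The segments on which the results turn are shown by their last 90 bases, which end in the stretch that is joined to the next segment. They were read from the GENCODE M21 transcripts of the C57BL/6J reference (GRCm38), while the mice were hybrids. The capitals mark the codon of the conserved cysteine near the end of each V segment. The 3 beta segments of the Trbv13 family, all on the + strand of chromosome 6, are shown because one of them led the beta counts in 6 of the 9 tumours: Trbv13-1 at chr6:41116007-41116468, Trbv13-2 at chr6:41121396-41121832 and Trbv13-3 at chr6:41130147-41130585.
Trbv13-1: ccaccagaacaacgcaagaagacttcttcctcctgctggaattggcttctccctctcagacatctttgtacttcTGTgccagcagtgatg
Trbv13-2: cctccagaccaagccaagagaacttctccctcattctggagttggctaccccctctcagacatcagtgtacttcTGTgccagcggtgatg
Trbv13-3: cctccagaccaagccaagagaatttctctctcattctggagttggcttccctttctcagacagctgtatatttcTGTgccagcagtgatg
Over the last 270 bases of their transcripts, identity was 91.1% for Trbv13-2 and Trbv13-3, 87.8% for Trbv13-1 and Trbv13-2 and 84.8% for Trbv13-1 and Trbv13-3.

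The alpha and delta segments shown lie on the + strand of chromosome 14. Trav10n (chr14:53122114-53122610) is shown with its near-identical copies Trav10 (chr14:53505727-53506286) and Trav10d (chr14:52810934-52811496), because 1 tumour had most of its alpha counts on Trav10n. Trav13-2 (chr14:53634829-53635399) led another tumour, and Trdv4 (chr14:54074905-54075515) was the segment counted in every library.
Trav10: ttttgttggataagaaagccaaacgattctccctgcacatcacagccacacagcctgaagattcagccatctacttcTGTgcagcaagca
Trav10d: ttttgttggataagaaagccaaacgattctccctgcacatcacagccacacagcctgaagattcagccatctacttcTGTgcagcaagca
Trav10n: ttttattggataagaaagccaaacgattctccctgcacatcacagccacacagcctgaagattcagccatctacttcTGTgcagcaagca
Trav13-2: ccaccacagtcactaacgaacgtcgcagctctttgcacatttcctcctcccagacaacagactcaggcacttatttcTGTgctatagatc
Trdv4: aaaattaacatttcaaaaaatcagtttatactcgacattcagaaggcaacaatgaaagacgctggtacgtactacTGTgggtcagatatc
Over the 270 bases compared, Trav10n differed from Trav10 at 4 bases and from Trav10d at 2. Within the 90 bases shown the only difference was G5A, counted from 1 at the first base shown, with the base of Trav10 first and that of Trav10n last. Trav10 and Trav10d were identical over the bases shown.

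Alpha, beta and delta variable segments had far fewer counts in the tumours than in epithelium, with no overlap between the groups. Over the 93 segments, the 3 epithelium libraries held 2550, 2236 and 2794 counts, or 88.2, 77.7 and 94.4 CPM. The tumours held between 9 counts (tumour 24) and 113 counts (tumour 20), and their lowest, median and highest levels were 0.346, 2.58 and 5.11 CPM. The groups did not overlap, and the ratio of their means, 86.7 ± 8.45 CPM in epithelium (SD, n = 3) and 2.52 ± 1.66 CPM in tumours (SD, n = 9), was 34.5. No p is given for a total over the segments.

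The ratio of the group means was larger for alpha and beta segments than for gamma and delta. Beta segments summed to 57.5 ± 5.68 CPM in epithelium and 1.26 ± 1.12 CPM in tumours, a ratio of 45.8. Alpha segments summed to 25.7 ± 3.08 CPM and 0.839 ± 1.08 CPM, a ratio of 30.6. Tumour 20 held most of the tumours' alpha counts, and without it their alpha mean was 0.503 CPM. Delta segments summed to 2.94 ± 0.438 CPM and 0.303 ± 0.269 CPM, a ratio of 9.68. Trgv2, the only gamma segment, averaged 0.549 ± 0.225 CPM and 0.119 ± 0.135 CPM, a ratio of 4.62. Alpha, beta and delta totals of every tumour lay below those of every epithelium library, whereas the ranges of Trgv2 overlapped.

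**Figure D1:**
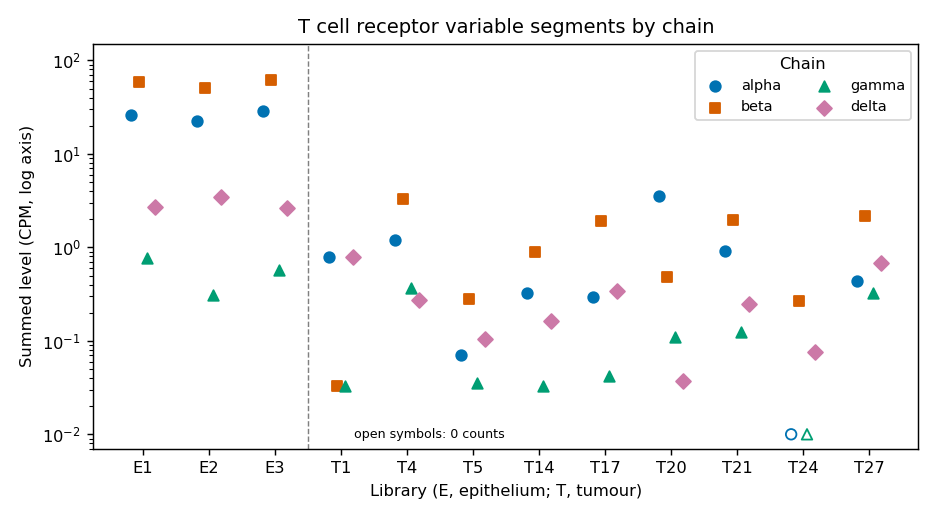
Summed level of the alpha, beta, gamma and delta variable segments in each of the 12 libraries, in CPM on a log axis; each point is 1 library and chain, and open symbols at the foot mark 0 counts. Beta is the highest chain in all 3 epithelium libraries, at 51.3 to 62.4 CPM, while in tumour 20 alpha (3.53 CPM) and in tumour 1 alpha and delta (0.797 CPM each) stand highest.

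Tested one by one with edgeR's quasi-likelihood test over all 21456 genes that passed its filter on low counts, 41 segments were lower in the tumours and 0 were higher at a Benjamini-Hochberg adjusted p under 0.05. Of all genes tested, 20.3% were called, with 11.4% lower and 8.89% higher. The filter passed 42 of the 93 segments: 23 alpha, 17 beta and 2 delta. Most of these could pass only through their counts in epithelium, so the count of calls is a description of these segments only. The 1 tested segment that was not called was Trav13-2, whose log2 fold change was -1.78 (SE 1.17, adjusted p = 0.29). The median log2 fold change of the 42 was -6.17, or -5.77 with segments absent from the tumours set to their bounds, and the range was -7.90 to -1.78, against a median of 0.17 over all genes tested.

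Without regard to the filter, 83 of the 93 segments had their highest tumour below their lowest epithelium library, including 42 of the untested ones. Among all genes with at least 5 counts, 11.3% did so. All 93 segments had at least 5 counts in epithelium alone and so met the minimum without the tumours. The numbers of segments without overlap or without a tumour count are therefore a description only. The 10 segments whose ranges overlapped were Trav1, Trav4-2, Trav10n, Trav13-2, Trav13d-4, Trav13n-3, Trav15d-3, Trbv5, Trdv1 and Trgv2. In 34 segments no tumour had a count: 31 alpha, 2 beta and 1 delta. Against a floor of 3 counts summed over the 9 tumours, these were at least 4.38-fold to at least 86.2-fold lower, with the highest bounds for Trbv26 (86.2) and Trav16 (85.6).

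Fewer different segments were seen in the tumours. The epithelium libraries had counts for 92, 91 and 92 of the 93 segments. The minimum of 5 counts over all libraries favours this, since epithelium held 7580 of the segments' counts and the tumours 525. The tumours had counts for 6 (tumour 24) to 30 (tumour 21), with a median of 17 and a mean of 17.1 ± 8.54 (SD, n = 9). Fewer counts alone give fewer segments, so each tumour was set beside the number expected if its own count total were drawn from the pooled epithelium counts. All 9 tumours were below that number: tumour 1 had 7 segments against 28.7 expected, tumour 20 had 17 against 44.2, and tumour 27 had 27 against 41.7. In tumour 20, 88 of the 113 counts were on Trav10n. In tumour 1, Trdv4 held 24 and Trav13-2 held 21 of the 50 counts. The gaps of tumours 1 and 20 thus go with 1 or 2 leading segments. The smallest gaps were in tumour 24, with 6 against 8.0, and in tumour 5, with 9 against 11.6. No spread was computed for the expected numbers, so small gaps cannot be told from sampling error. Since reads carry no molecular identifiers, several counts can come from 1 molecule, and the share of the gap due to this was not tested.

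**Figure D2:**
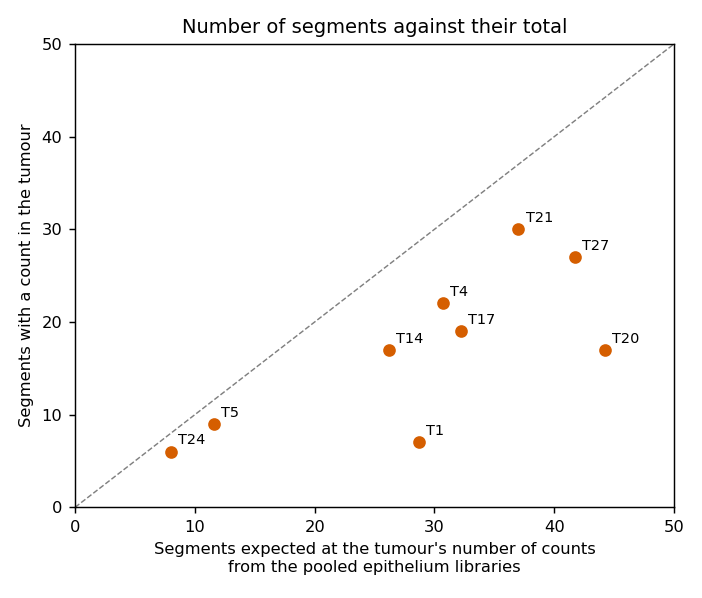
Number of variable segments with at least 1 count in each of the 9 tumours (vertical axis) against the number expected at that tumour's count total from the pooled epithelium libraries (horizontal axis); each point is 1 tumour and the dashed line marks equal numbers. All 9 tumours lie below the line, from 6 against 8.0 in tumour 24 to 17 against 44.2 in tumour 20.

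In epithelium the beta counts were spread over many segments, 14 of the 21 holding at least 4%. Trbv3 was the most counted, at 9.13 ± 0.82% of beta counts (SD, n = 3), ahead of Trbv16 at 8.03 ± 0.20%, Trbv2 at 7.97 ± 0.75% and Trbv13-1 at 7.96 ± 0.76%, and Trbv30, Trbv24, Trbv23 and Trbv5 were the lowest at 0.64% to 0.10%. Trbv16, Trbv2 and Trbv13-1 differed by less than their SDs. Per kilobase of exon, which allows levels of different genes to be compared, the order in epithelium was Trbv13-1 (12.5 ± 0.70 CPM per kb), Trbv13-2 (12.2 ± 2.01), Trbv3 (11.6 ± 2.12), Trbv16 (11.6 ± 0.88), Trbv15 (11.2 ± 1.14) and Trbv13-3 (10.9 ± 1.33), whose spreads overlap. At the other end, Trbv5 was at 0.155 CPM per kb. The median beta segment was at 7.15 CPM per kb and the median alpha segment at 0.871, with Trav14-1 the highest alpha segment at 3.40. Many alpha segments share stretches with near copies, so their levels may be too low beside beta.

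Trbv3 had 162, 121 and 179 counts in epithelium. In the tumours it was at 0 in 6 libraries, at 1 count in tumour 21, 2 in tumour 17 and 6 in tumour 27. Its level went from 5.28 ± 0.962 to 0.0382 CPM, which is -6.91 on the log2 scale (SE 0.88, adjusted p = 0.000212) and -8.05 without tumour 27. Trbv16 fell by 6.94 on the log2 scale (adjusted p = 6.8e-05), from 135, 122 and 146 counts to between 0 and 2 counts. Trbv29 fell by 7.42 (adjusted p = 4.2e-05), from 78, 107 and 84 counts to 2 counts in tumour 21 and 1 in tumour 27, with a change of -8.33 without tumour 21. Trbv2 went from 149, 117 and 134 counts to between 0 and 8 counts (log2 fold change -5.99, adjusted p = 0.000478, and -6.78 without tumour 27). These segments were scarce in every tumour, and each was at 0 in at least 4 of the 9.

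The Trbv13 family held the most beta counts among those that the tumours did have. The family was also well counted in epithelium, where Trbv13-1, Trbv13-2 and Trbv13-3 held 7.96%, 7.19% and 6.43% of beta counts on average. Trbv13-1 was the leading beta segment of epithelium library 2. Trbv13-2 had 129, 97 and 137 counts in epithelium and 18 in tumour 4, 13 in tumour 27, 10 in tumour 21, 5 in tumour 17 and 3 each in tumours 14 and 20, with 0 in tumours 1, 5 and 24. It fell by 3.79 on the log2 scale (SE 1.06, adjusted p = 0.0241). That call was lost without any 1 of the epithelium libraries (adjusted p = 0.0804, 0.0647 and 0.0821), and the change was -4.65 without tumour 4. Trbv13-3 went from 112, 92 and 120 counts to at most 13 counts, in tumour 17, and fell by 4.31 (adjusted p = 0.00546). Trbv13-1 went from 125, 130 and 143 counts to at most 15 counts, in tumour 21, and fell by 4.85 (adjusted p = 0.00143), with a change of -5.53 without tumour 21. All 3 were below every epithelium library in every tumour.

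A member of this family was the most counted beta segment in tumours 4, 14, 17, 21, 24 and 27, with Trbv13-1 and Trbv13-3 tied at 2 counts each in tumour 24. In tumour 4 Trbv13-2 was 18 of 36 beta counts, or 50.0% (exact 95% binomial interval 32.9% to 67.1%). In tumour 21 Trbv13-1 was 31.2% (18.7% to 46.3%) of beta counts and in tumour 17 Trbv13-3 was 28.9% (16.4% to 44.3%). In tumour 27 Trbv13-2 was 21.7% (12.1% to 34.2%), and in tumour 14 Trbv13-3 was 22.2% (8.6% to 42.3%), an interval that reaches the epithelium values. The leading segment of an epithelium library held 8.8% to 9.7%. The largest of many shares is raised by chance where counts are few, and the intervals do not allow for that choice, so the tumours' leading shares are a description. The other tumours had few beta counts, with Trbv14 leading in tumour 20 (4 of 13), Trbv12-1, Trbv15 and Trbv5 tied in tumour 5 (2 of 8 each) and Trbv20 in tumour 1 (1 of 1). All intervals and floors cover counting error only.

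**Figure D3:**
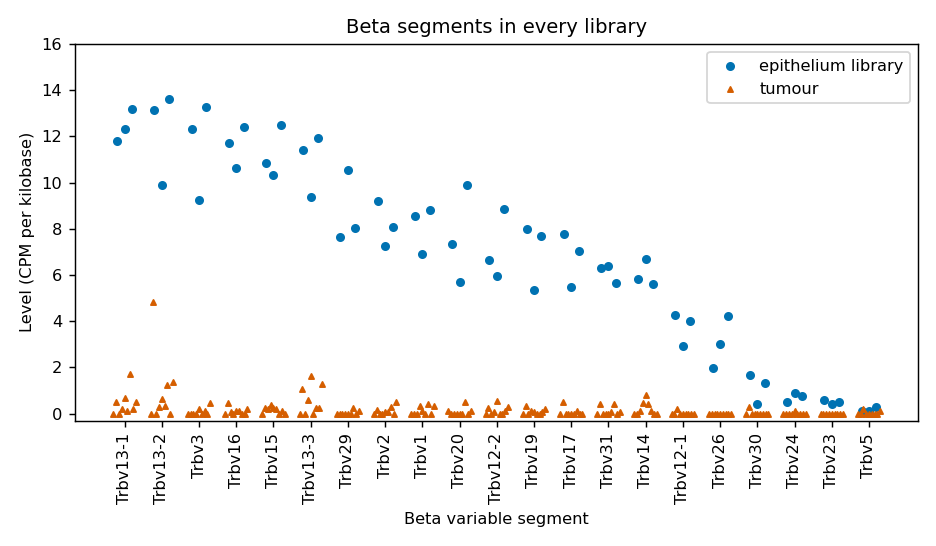
Level of each of the 21 beta variable segments in CPM per kilobase of exon, with 1 circle for each epithelium library and 1 triangle for each tumour, in order of the epithelium mean. The circles run from 12.5 CPM per kb on average for Trbv13-1 to 0.155 for Trbv5, the triangles lie near 0, and the 3 Trbv13 segments hold the highest triangles.

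The 5 beta segments Trbv26, Trbv12-1, Trbv12-2, Trbv15 and Trbv16, belong to known targets of superantigens encoded by endogenous mammary tumour viruses, which delete T cells bearing them in BALB/c mice. In libraries of these BALB/c hybrids, epithelium held 23.1%, 24.6% and 25.8% of their beta counts on these 5 segments. Trbv16 and Trbv15 were among the most counted beta segments there, at 8.03% and 7.22% on average. Trbv12-2, Trbv12-1 and Trbv26 held 4.76%, 2.51% and 1.96%. Whether such deletion took place in these hybrids was not tested. In the tumours 32 of 245 beta counts, pooled, were on them, or 13.1% (9.1% to 17.9%), a difference that was not tested. The pooled interval leaves out the spread between tumours, which was wide. In tumour 21, with 48 beta counts, all 5 segments were at 0, while in tumour 5 Trbv12-1 and Trbv15 held 2 each of 8 beta counts. Trbv26 had 21, 32 and 46 counts in epithelium and 0 in all tumours (adjusted p = 0.00177). Trbv12-1 had 48, 33 and 46 counts in epithelium and, among the tumours, 2 counts in tumour 5 only, a log2 fold change of -6.77 (adjusted p = 7.0e-05) that was -8.25 without that tumour. Trbv15 fell by 6.17 (adjusted p = 7.1e-05), and Trbv12-2 fell by 5.65 (adjusted p = 0.000376), with a change of -6.30 without tumour 17. Trbv31, which lies in inverted orientation beyond the constant segments, went from 76, 77 and 70 counts to between 0 and 4 counts (log2 fold change -5.91, adjusted p = 0.0004, and -6.62 without tumour 21).

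Single alpha segments had fewer counts, since 67 of them shared fewer counts than 21 beta segments: 2248 against 5028 in epithelium and 186 against 245 in tumours. Reads shared between alpha copies may be left uncounted, so these counts do not show that alpha segments were rarer. Trav14-1 led in epithelium libraries 1 and 2, with 6.7% and 6.0% of alpha counts, and Trav14d-3-dv8 in library 3 with 4.8%. Trav14-1 went from 1.35 to 0.00920 CPM, a log2 fold change of -6.64 (adjusted p = 9.5e-05), with counts only in tumour 21 and a value of -8.17 without it. Trav14d-3-dv8 fell by 5.88 (adjusted p = 0.000442), with a change of -6.95 without tumour 4. Trav16 was at 1.12 CPM in epithelium and at 0 in all 9 tumours (adjusted p = 0.00129), as was Trav14-2, at least 61.9-fold lower. Trav14-3 fell by 4.90 (adjusted p = 0.000311), with 28, 21 and 20 counts in epithelium and between 0 and 2 in the tumours. Trav7-5, Trav12-2, Trav3-3, Trav7-4 and Trav14n-3, named for their small adjusted p-values, each had 48 to 65 counts over the epithelium libraries and a single count in 1 tumour (tumours 20, 21, 21, 14 and 4). Their log2 fold changes were -6.36 to -5.94 (adjusted p = 5.2e-05 to 9.5e-05), and -7.37 to -6.85 without that tumour.

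The mouse alpha locus holds repeated blocks, so many alpha segments have copies marked d or n, and reads from such copies may be counted on either or on neither. Of all stretches of 50 bases in a transcript, a median of 56.9% (11% to 100%) was found in no other V transcript for the 67 alpha segments, against 100% for the median beta segment. Among 61 alpha segments under the count minimum the median was 0, and 40 had no unique stretch. None of these 40 had a count in any library. Segments without a copy suffix held 1646 of the epithelium's alpha counts, d copies 302 and n copies 300. Values of single alpha segments with copies, and the levels of alpha beside beta segments, are therefore uncertain.

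The copy-marked n segments held 99 counts in the tumours, of which 88 were Trav10n in tumour 20. Trav10n had 4, 6 and 9 counts in epithelium, 88 in tumour 20 (3.24 CPM) and 0 in the other 8 tumours. It was 91.7% (84.2% to 96.3%) of that tumour's 96 alpha counts. The segment did not pass the filter and was not tested. Its transcript is unique over 36.4% of its 50-base stretches, so the copy of origin among Trav10, Trav10d and Trav10n is uncertain. Trav10 and Trav10d, unique over 39.8% and 16.2% of theirs, had 0 counts in tumour 20. The 12 other genes that start within 50 kb had 1 count together in tumour 20, on Trav6n-6.

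Per kilobase, Trav10n in tumour 20 was above the constant segment to which it would be joined. It had 257 counts per kb, against 15.0 for Trac, the alpha constant segment, and 1.47 for Cd3e, a signalling chain of the receptor. In epithelium Trac averaged 2771 counts per kb and Trav10n 18.5. The alpha joining segments had 6 counts in tumour 20. The ratio of all alpha variable counts to Trac counts was 0.285 to 0.297 in epithelium, 6.86 in tumour 20 and 1.04 in tumour 1. Pooled over the tumours it was 0.562, or 0.284 without tumour 20. What these Trav10n reads come from was not tested.

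Tumour 1 had its alpha counts on another segment. Trav13-2 had 14, 9 and 12 counts in epithelium, 21 in tumour 1, 3 in tumour 4 and 1 each in tumours 17 and 27, with 0 in the rest. In tumour 1 it was 21 of 24 alpha counts, or 87.5% (67.6% to 97.3%). There it stood at 53.9 counts per kb, beside 24.6 for Trac, and the 12 other genes that start within 50 kb had 0 counts. The alpha joining segments had 22 counts in that tumour. Tumour 1 had only 1 beta count and 24 counts of Trdv4. In the 7 tumours other than 1 and 20, no alpha segment had more than 4 counts.

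Segments of the semi-invariant T cell types gave few counts, and for Trav11 these say little. Trav11 and Trav11d, whose family supplies the alpha chain of invariant NKT cells, had 0 counts in all 12 libraries. No 50-base stretch of either is unique among V transcripts, so their reads may be left uncounted and their level cannot be read from these zeros. The copy Trav11n, annotated as a pseudogene and unique over 78.6% of its stretches, had 4, 1 and 2 counts in epithelium. Trav1, which supplies the alpha chain of mucosal-associated invariant T cells, had 12, 0 and 5 counts in epithelium and 0 in the tumours. Trav1 has no near copy, and its counts were too low for a test.

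Gamma and delta segments made up a larger share of the segment counts in most tumours. They were 4.0% (3.2% to 4.8%), 4.8% (4.0% to 5.8%) and 3.4% (2.8% to 4.1%) of segment counts in the epithelium libraries. In the tumours the lowest, median and highest shares were 3.5% (tumour 20), 14.8% (tumour 17) and 50.0% (tumour 1, 35.5% to 64.5%). The share was above every epithelium library in 8 of 9 tumours, and in 4 of them (tumours 1, 5, 17 and 27) the interval lay above those of every epithelium library. Pooled, the share was 304 of 7580 counts in epithelium (4.0%, 3.6% to 4.5%) and 94 of 525 in tumours (17.9%, 14.7% to 21.5%), and 21.8% (17.9% to 26.2%) without tumour 20. Tumours 1 and 27 held 25 and 28 of the 94, and the pooled intervals leave out the spread between libraries. With the Tcrg-V segments added the share of single libraries was 5.2% to 6.9% in epithelium and 4.4% to 51.0% in tumours. The level of gamma and delta segments itself was lower in the tumours, at 0.422 ± 0.334 CPM against 3.48 ± 0.272 CPM, so the higher share goes with lower levels of both classes.

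**Figure D4:**
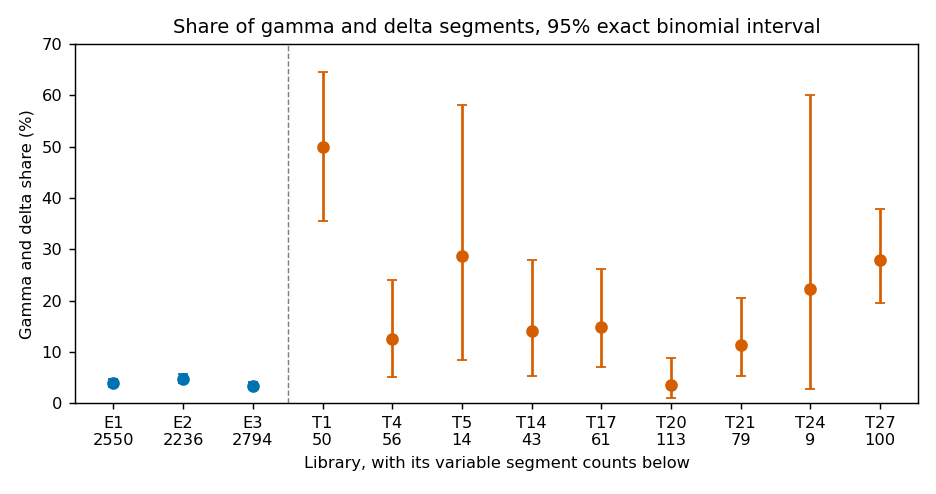
Share of gamma and delta segments in all variable segment counts of each library, in percent, with exact 95% binomial intervals as bars. The epithelium libraries sit at 3.4% to 4.8%, and 8 of the 9 tumours lie above them, with wide intervals where counts are few.

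Trdv4 accounted for most of the delta counts. This segment is the one joined in the delta chain of gamma-delta T cells that settle in the skin and in the mucosa of the reproductive tract and tongue. It had 57, 51 and 53 counts in epithelium and 24, 2, 3, 4, 8, 1, 4, 2 and 17 in tumours 1, 4, 5, 14, 17, 20, 21, 24 and 27. No other variable segment had a count in all 9 tumours. Every tumour lay below every epithelium library. Its level went from 1.84 ± 0.111 CPM to a lowest, median and highest tumour value of 0.0368, 0.166 and 0.797 CPM, or -2.72 as log2 fold change (SE 0.65, adjusted p = 0.0116). The adjusted p was 0.0516 without epithelium library 1.

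**Figure D5:**
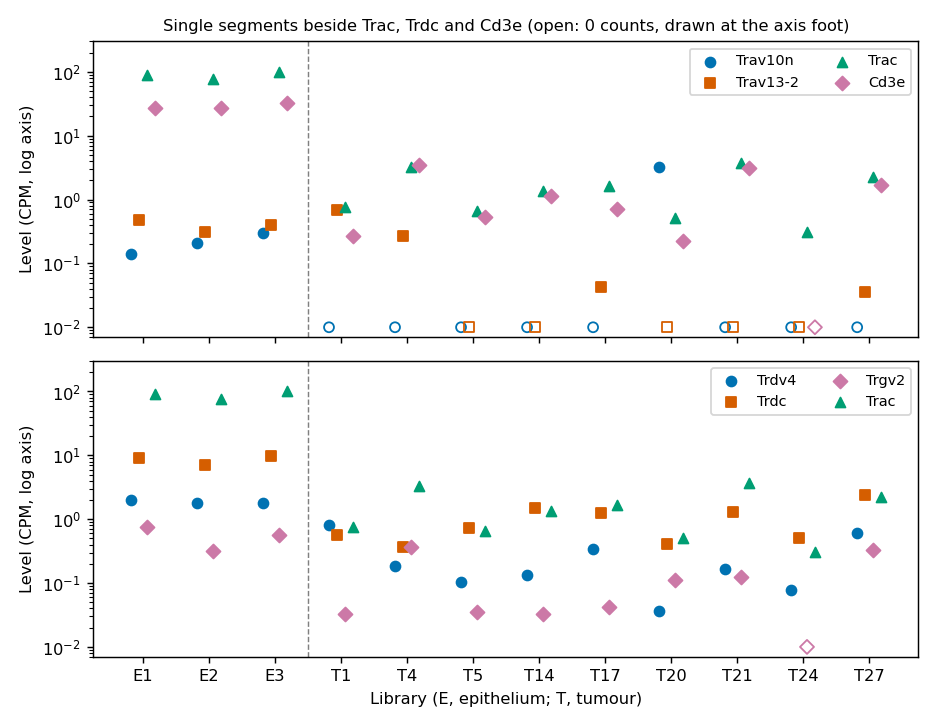
Levels in CPM on a log axis in each of the 12 libraries, with Trav10n, Trav13-2, Trac and Cd3e in the upper panel and Trdv4, Trdc, Trgv2 and Trac in the lower one; each symbol is 1 gene in 1 library, and open symbols at the foot mark 0 counts. Trav10n is at 3.24 CPM in tumour 20, above Trac there, and at 0 in the other tumours, while Trdv4 is above 0 in all 9.

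Trdv4 fell less than the alpha constant segment Trac. The ratio of Trdv4 counts to Trac counts was 0.0178 to 0.0233 in epithelium, and its lowest, median and highest tumour values were 0.0449, 0.158 and 1.04. The ratio was higher by 2.85 on the log2 scale in the tumours, and all 9 tumours were above all epithelium libraries (exact two-sided permutation test, p = 0.00909, the smallest that 9 against 3 libraries allow). For Trdc, the delta constant segment, the ratio to Trac was 0.0923 to 0.100 in epithelium and 0.111 to 1.63 in tumours, a log2 difference of 2.84 with the same exact p = 0.00909 in 9 of 9 tumours. Both p-values were also 0.00909 after adjustment over these 2 ratios, which were chosen after the values were seen. Since the denominator is low in the tumours, the single ratios are imprecise there.

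The remaining delta and gamma segments were scarce. Trdv5 had 11, 22 and 13 counts in epithelium and 1 in tumour 14 and 2 each in tumours 21 and 27, a log2 fold change of -4.33 (adjusted p = 0.00176). Trdv2-2 had 7, 18 and 10 counts in epithelium and none in the tumours, at least 30.6-fold lower, and Trdv1 had 4, 8 and 2 counts against 1 in tumour 4. Trgv2 had 22, 9 and 17 counts in epithelium and 9 in tumour 27, 4 in tumour 4, and 0 to 3 in the rest. It was counted in 8 of 9 tumours and did not pass the filter.

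Among gamma segments outside the rule, Tcrg-V4 and Tcrg-V1, which are used by gamma-delta T cells of lymphoid organs, had log2 fold changes of -4.18 (adjusted p = 0.00552) and -3.86 (adjusted p = 0.00678). Without tumour 27 the changes were -4.98 and -4.85, and without epithelium library 3 Tcrg-V1 was no longer called (adjusted p = 0.0547). Tcrg-V6, which pairs with the Trdv4 chain in mucosal gamma-delta T cells, was not tested. It had 9, 7 and 1 counts in epithelium and 9 in tumour 27, 3 in tumour 21 and 0 to 2 in the others, so its ranges overlapped. Tcrg-V7 had 0 counts in all epithelium libraries, 5 in tumour 21 and 4 in tumour 27. Tcrg-V3 and Tcrg-V5, the other gamma segments with older symbols, were not tested either.

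Most constant segments, to which the variable segments are joined, were lower as well. Of 8 constant segments 7 were tested, 5 fell and 0 rose. Trac was at 88.9 ± 12.2 CPM in epithelium and at 1.61 ± 1.23 CPM in tumours, where its counts ran from 8 (tumour 24) to 89 (tumour 21), a log2 fold change of -5.80 (adjusted p = 6.4e-05). The beta constant segments Trbc1 and Trbc2 had log2 fold changes of -6.31 (adjusted p = 0.000356) and -5.41 (adjusted p = 0.00214). Trdc fell by 3.09 (SE 0.49, adjusted p = 0.000883), from 8.58 ± 1.39 to 0.995 ± 0.668 CPM. The gamma constant segments gave -2.59 for Tcrg-C4 (adjusted p = 0.0373), -2.07 for Tcrg-C1 (0.103) and -2.27 for Tcrg-C2 (0.112). Leaving out single libraries, the Tcrg-C4 call was lost 7 times in 12 (adjusted p up to 0.143), while Tcrg-C1 and Tcrg-C2 were called without tumour 27 (adjusted p = 0.0353 and 0.0411, with a change of -2.88 for Tcrg-C2).

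Variable segments were also set against the constant segments of their own chain. Pooled over libraries, there were 0.377 beta variable counts for each count of Trbc1 and Trbc2 in epithelium and 0.415 in tumours. For delta the values were 0.341 and 0.300 per count of Trdc. In single libraries the beta ratio was 0.360 to 0.401 in epithelium and 0.0909 to 1.63 in tumours, and the delta ratio 0.272 to 0.490 and 0.0909 to 1.41. The tumours thus lay on both sides of the epithelium values, and the pooled sums weigh most the tumours with most counts. No test was made of these ratios.

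The signalling partners of the receptor fell in the same libraries. All 4 CD3-complex genes were lower, with log2 fold changes of -5.59 for Cd3d, -4.56 for Cd3e (adjusted p = 0.00315), -4.81 for Cd3g and -5.06 for Cd247, and their summed level was 160 to 178 CPM in epithelium and 0.845 to 14.9 CPM in tumours. The co-receptors Cd4, Cd8a and Cd8b1 were all lower, at -4.12, -5.26 and -4.99 on the log2 scale. Of 20 genes of T cell receptor signalling, 20 were lower, among them the kinases Lck (-4.91) and Zap70 (-4.52) and the adaptor Lat (-5.25). Of 4 rearrangement and thymic genes, 2 were tested (Rag1 and Dntt) and 0 were called with edgeR, against 1 with DESeq2, 2 with limma-voom and 1 with edgeR without tumour 17. Dntt, which adds bases at the joins, had 37, 84 and 81 counts in epithelium, 81 in tumour 17 and 0 to 11 in the other tumours. Rag1, a subunit of the recombinase, had a log2 fold change of -2.51 (adjusted p = 0.0837, and 0.0123 with limma-voom), or -1.67 without epithelium library 3. Rag2 and Ptcra, the latter the partner of the beta chain in the thymus, were not tested, and Ptcra had 5, 6 and 7 counts in epithelium and 1 to 12 in tumours. The edgeR counts for all lists are read beside the 11.4% of all genes that were lower.

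Markers of particular T cell states differed between lists. All 8 genes of naive and recirculating T cells were lower (median log2 fold change -4.72), and 5 of 6 cytotoxic genes were, or 3 without any 1 epithelium library. Of 7 genes of gamma-delta and innate-like T cells, 3 were lower and 0 higher, with a median of -1.87, and their summed level of 67.1 to 114.6 CPM in epithelium lay within the tumours' range of 19.0 to 236.5 CPM. Of 6 NK cell genes, 5 were tested and 4 were lower, or 2 without epithelium library 1. Ncr1, an NK cell receptor, fell by 5.49 (adjusted p = 8.6e-05).

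B cell markers and most markers of lymph node stroma and vessels were lower in the same libraries as the variable segments. All 8 B cell genes were lower (median log2 fold change -5.48), with a summed level of 722.5 to 990.9 CPM in epithelium and 4.84 to 79.7 CPM in tumours. Of 6 genes of lymph node stroma and vessels 4 were lower (median -6.88), with 1029 to 1517 CPM in epithelium and 1.99 to 44.4 CPM in tumours. Madcam1 (log2 fold change -1.86, adjusted p = 0.223) and Cxcl13 (-1.93, adjusted p = 0.125) were not called, and their ranges overlapped. Glycam1, a ligand of lymph node vessels that the mammary epithelium can also express, averaged 818.9 CPM in epithelium and 0.603 CPM in tumours. At 613 to 1040 CPM in the epithelium libraries, it made up most of the summed level of this list there. Of 6 macrophage genes 0 were lower and 2 were higher, with 652 to 945 CPM in epithelium and 454 to 3020 CPM in tumours. The part of lymph node tissue in the difference in variable segments was not tested.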

How the data were processed

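RNA was sequenced from 9 tumours and 3 epithelium preparations with the TruSeq stranded protocol, per the labels. The authors deposited whole-number counts per gene, with no normalization. Per the submitters' processing notes, the build was GRCm38 and the tools included HTSeq 0.11.0, TopHat2 2.1.1 and FastQC 0.11.8. Not given in the sources used here were the annotation release, the strand setting and the setting for reads with several alignments. Alignments that were not unique were summed apart from the genes. Summary counts of alignments outside genes were left out of library sizes. Group and number were read from the titles, and no column was without a sample (0). No libraries of a group were copies (smallest chi-square per degree of freedom 24.1).

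Counts were fitted in R 4.3.3 with edgeR 4.0.16 (filterByExpr, trimmed mean of M values, robust quasi-likelihood F test on group) over all genes, with Benjamini-Hochberg adjustment and calls under 0.05. The code was tested on simulated data. CPM used normalized library sizes and no prior count. DESeq2 1.42.0, limma 3.58.1 (voom), other scalings and filters and leaving out each library were alternatives. Python 3.11.15, pandas 2.3.3, numpy 2.4.6, scipy 1.17.1 and matplotlib 3.10.9 did the rest. Expected numbers of segments came from the exact rarefaction formula. Positions and sequences came from GENCODE M21. With RNA from bulk tissue and no molecular identifiers, intervals cover counting error only.

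The members, the 13 gene lists and the tests were chosen with earlier results of these data known. Genes were named by a rule: receptor genes fixed by name; the 6 alpha and 6 beta segments with most counts; every gamma and delta segment; the leading segment of each library; the 6 called segments with the smallest adjusted p not yet named; any segment called higher; and textbook segments of invariant T cells, superantigen targets and the inverted Trbv31. Other segments named, and the ratios to Trac, were chosen after their values were seen.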

Additional observations from a re-analysis of the deposited data

Results flagged for a closer look

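In the group of 9 tumours, the following quantities had 1 library far from the others by Dixon's ratio (27 of 65 quantities), a mark that chance gives to about 1 group in 20. At counts this low, a single library with any count is enough to be marked.

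Tumour 20 stood apart for Trav10n at 3.24 CPM, for the alpha total at 3.53 CPM and for Trav7-5 at 0.0368 CPM. Tumour 4 stood apart for Trbv13-2 at 1.64 CPM, Cd3d at 2.097 CPM, Trav14d-3-dv8 and Trbv16 at 0.182 CPM each, and Rag2, Trdv1 and Trav14n-3 at 0.0912 CPM each. Tumour 21 stood apart for Trbv13-1 at 0.621 CPM and Zap70 at 3.02 CPM, for Trav14-1, Trav14-3 and Trbv29 at 0.0828 CPM each, and for Trav12-2 and Trav3-3 at 0.0414 CPM each. Tumour 27 stood apart for Cd4 at 18.1 CPM, Tcrg-C1 at 2.28 CPM, Rag1 at 0.399 CPM, Tcrg-V6 at 0.326 CPM, Trbv3 at 0.217 CPM and Tcrg-V1 at 0.181 CPM. Tumour 17 stood apart for Tcrg-V3 at 0.0423 CPM, tumour 5 for Trbv12-1 at 0.0700 CPM and tumour 14 for Trav7-4 at 0.0329 CPM. In tumour 1 the leading beta segment held 100% of beta counts, which was 1 count of 1.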

How the results depend on the processing

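Against 41 segments called lower with edgeR, DESeq2 called 74 of 83 tested and edgeR without a filter called 85 of 93. A minimum of 2 counts lowered the mean number of segments in a tumour from 17.1 to 8.4. Leaving out 1 library at a time gave 41 to 45 segments called lower, 0 called higher, a median log2 fold change of -6.28 to -6.04, 59 to 67 listed genes called lower, a log2 ratio of totals of -5.31 to -4.96, 15.5 to 18.5 segments in a tumour, a mean gamma-delta share of 16.9% to 22.7% and a median leading beta share of 28.8% to 29.9%. Over 45 named genes tested, 837 of 854 pairs of a gene and an alternative kept direction and call, 12 lost the call (Tcrg-C4, Trbv13-2, Trdv4 and Tcrg-V1), 5 gained it and 0 reversed. The median of all genes tested was 0.17, and -0.12 with library totals as scaling, so changes are relative to such a shift. No paired analysis was possible because the groups differ in genotype and the labels pair no tumour with an epithelium library. With 9 to 113 segment counts per tumour, depth limits every statement on single segments there: most were at or under the floor of 3 counts, and absence of a segment cannot be read from a 0.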
